A study of Macaca mulatta with 4 samples.

Results

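Astrocytes other than Bergmann glia were examined in the cerebellum of the late-gestation rhesus macaque fetus (Macaca mulatta) as a set of nuclei chosen by marker genes. A barcode, the tag that marks the RNA of 1 nucleus, was counted as an astrocyte when it held at least 500 genes, had at least 2 of the 5 markers KCNN3, ANOS1, GFAP, ANGPT1 and BBOX1, and had more of these than of the 5 Bergmann glia markers TNC, GRIA1, EMID1, FGFR2 and LGR6. It also had to hold no unique molecular identifier (UMI, 1 counted RNA molecule) of MKI67, TOP2A or ASPM, which mark dividing cells, of PDGFRA, which marks oligodendrocyte precursors, or of GAD2, which marks inhibitory neurons. This rule found 561 astrocytes among 32587 barcodes with at least 500 genes. The same rule with the marker sets exchanged found 1092 Bergmann glia, the cells most like them, and these served as the nearest comparison.

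The nuclei came from single-nucleus RNA sequencing of flash-frozen cerebellum from 4 fetuses, 1 library per fetus. Both control fetuses, 1 female and 1 male, had no intervention and were at 130 days of gestation. The LPS fetuses had 1 mg of lipopolysaccharide (LPS, endotoxin of the E. coli cell wall) injected into the amniotic fluid some days before delivery as a model of chorioamnionitis, inflammation of the membranes around the fetus, and were at 131 days (female) and 133 days (male). The design asked what such inflammation changes in the cerebellum, and with 2 fetuses in each group the spread between fetuses of 1 group was also the spread between the sexes. Both LPS fetuses were older than both control fetuses, so treatment and gestational age cannot be told apart. Sets of 4 values are given in the order Control female, Control male, LPS female and LPS male.

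Astrocytes clear glutamate and potassium from around synapses, move water, supply neurons with metabolites and lay down extracellular matrix. In the cerebellum, Bergmann glia are the specialised astroglia whose cell bodies line the Purkinje cell layer and whose radial fibres guide granule cells on their way inward, while the other astrocytes lie in the granular layer, the deep nuclei and the white matter. Of the markers of the rule, KCNN3 encodes a calcium-activated potassium channel, ANOS1 the secreted matrix protein anosmin, GFAP the intermediate filament protein of astrocytes, ANGPT1 a ligand that acts on blood vessels, and BBOX1 an enzyme of carnitine synthesis.

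The number of UMIs per barcode differed by sex and not by treatment. The median UMI count of a barcode was 4506, 1882, 4062 and 2308, and the median of an astrocyte was 4622, 2039, 4120 and 2324.5. The mean mitochondrial share of UMIs was 0.268, 0.0214, 0.231 and 0.0327%. The libraries held 61665690, 34282015, 41642819 and 56935290 UMIs in all, totals that did not split by sex. Barcodes with at least 500 genes held from 38.7 to 74.1% of them. No astrocyte barcode was shared between any pair of libraries. RNA in barcodes of at most 100 UMIs was taken as free RNA, and its levels are given beside several of the genes where they reached those of the astrocytes.

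The marker conditions alone were met by 460, 437, 312 and 346 barcodes. The zero conditions then removed 79.1, 47.8, 81.1 and 48.6% of them. This is more in the 2 female libraries, which had more UMIs per barcode, than in the male ones. PDGFRA did most of this. It was detected in 75.0, 41.2, 78.2 and 40.2% of the barcodes that met the marker conditions and in 64.3, 33.9, 74.6 and 29.4% of all other barcodes, neurons included. In CPM, counts scaled to the same total in every set of summed barcodes, its levels were 268.4, 217.9, 353.7 and 166.5 in the first and 277.3, 250.9, 390.3 and 166.6 in the second, so PDGFRA was at or below its general level there in all 4 libraries. In free RNA it stood at 508.2, 291.7, 1214 and 199.1 CPM. Each of the other 4 genes was found in at most 11.2% of the barcodes that met the marker conditions.

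The rule left 96, 228, 59 and 178 astrocytes. Just outside it, 263, 394, 127 and 561 barcodes met every condition but had 1 marker, and 24, 47, 12 and 33 had as many Bergmann glia markers as astrocyte markers. Just inside it, 33, 62, 21 and 111 had exactly 2 markers. LPS male therefore had 111 of its 178 astrocytes, or 62.4%, at the lowest number of markers the rule accepts, against 27.2 to 35.6% in the other 3 libraries.

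As the rule chose the nuclei by these genes, their levels are a description. ANGPT1 was the marker found most often in 3 of the 4 libraries, in 86.5, 80.3, 83.1 and 75.8% of astrocytes against 15.4, 10.0, 14.8 and 15.2% of all other barcodes. ANOS1 was found in 78.1, 75.4, 84.7 and 57.3% of astrocytes and was the most frequent in LPS female. KCNN3 was found in 69.8, 64.0, 71.2 and 50%. GFAP and BBOX1 varied most between libraries. GFAP was found in 47.9, 67.1, 32.2 and 59.6% of astrocytes, more often in the males than in the females of either group. BBOX1 was found in 56.2, 36.0, 40.7 and 15.2%, least in LPS male. After every barcode was thinned to 1000 UMIs, so that depth was the same, GFAP was found in 18.9, 45.7, 14.0 and 41.4% and BBOX1 in 24.2, 19.5, 15.8 and 5.52%, and the order of the libraries by GFAP was kept. This left out 1, 18, 2 and 33 astrocytes with fewer UMIs. The astrocytes were still those that met the rule before thinning, so they were not chosen at equal depth. Of the Bergmann glia markers, TNC, a matrix glycoprotein, was found in 62.5, 55.7, 52.5 and 29.2% of astrocytes and LGR6 in at most 3.37%.

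The label of the nuclei was checked against 16 general astroglial genes that the rule did not use. Nuclei with 3 or more markers, 334 of the 561, carried astroglial RNA in every library, and those with 2 markers did so only in part. The summed level of the list had a median over nuclei with 3 to 5 markers of 8389, 5979, 9388 and 6864 CPM. Over nuclei with 2 markers it was 649.6, 1961, 1737 and 1506 CPM, and over all other barcodes 693.0, 437.6, 731.3 and 788.6 CPM. The summed level of 12 granule cell genes went the other way. Its median was 9813, 3889, 3271 and 8969 CPM over nuclei with 2 markers and 755.7, 724.8, 603.6 and 2500 CPM over those with 3 to 5, against 8829, 8892, 7052 and 10721 CPM over all other barcodes, most of which are granule cells. In Control female the nuclei with 2 markers thus had more granule cell RNA than the other barcodes, and in LPS male almost as much. For the nuclei with 2 markers in these libraries the data go against the label, and in Control female their astroglial list was also below that of the other barcodes. The word astrocyte below stands for the 561 nuclei that met the rule, and not for a cell type shown for each of them. In the same way, Bergmann glia stands for the 1092 barcodes of the mirrored rule. Their granule cell list had a median of 703.0, 819.7, 402.8 and 3704 CPM, highest in LPS male. In that library 204 of the 377 Bergmann glia had at least 3 of their markers.

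**Figure D1:**
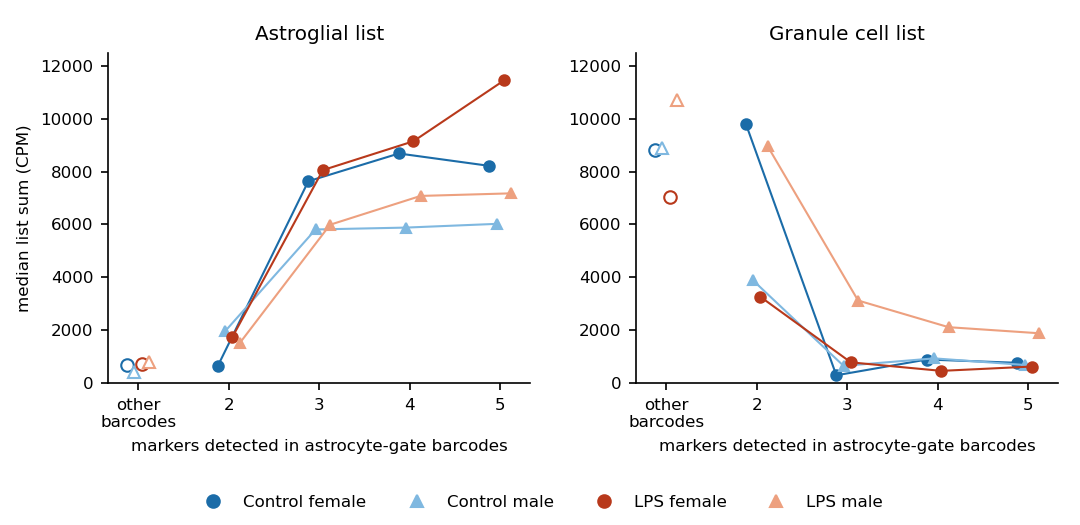
Median over barcodes of the summed level (CPM) of 16 astroglial genes (left) and of 12 granule cell genes (right), by the number of the 5 rule markers detected in astrocyte-gate barcodes (filled symbols) and in all other barcodes (open symbols), 1 line per library. Astroglial RNA rises and granule cell RNA falls from 2 to 3 markers in every library, and LPS male stays highest in granule cell RNA at 3 to 5 markers with 2500 CPM.

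Against all other barcodes, the astrocytes stood out by a set of genes that were high in all 4 libraries. Of 2999 genes outside the rule with at least 50 CPM in astrocytes of every library, 919 were higher than in the other barcodes in all 4 libraries and 210 were higher by more than 1 on the log2 scale in each. These are descriptions, since the nuclei were chosen by this contrast. The gene with the highest lowest-of-4 ratio was GALNT3, an enzyme that starts O-linked glycosylation, at 199.99, 122.9, 203.4 and 138.7 CPM in astrocytes and 16.9, 8.78, 13.2 and 10.1 CPM elsewhere, log2 ratios of 3.49 to 3.84. PI15, a secreted protease inhibitor, followed with 295.8, 215.6, 138.5 and 215.8 CPM and ratios of 3.29 to 3.66. EYA4, a transcriptional co-activator and phosphatase, was at 172.9, 172.1, 90.9 and 145.3 CPM. None of these genes exceeded 25.3 CPM in the other barcodes of any library.

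The next genes on this ranking were GRAMD2B, EEPD1, an unnamed gene (ENSMMUG00000044314), FAM189A2, KNDC1, RGCC, SCUBE2, CCDC80, SPARCL1, BCAN, ANKFN1 and DHRS3, with log2 ratios of 2.63 to 3.98. Some are well-known astrocyte products. SPARCL1, a secreted protein that promotes synapse formation, was at 458.3, 501.1, 640.3 and 446.9 CPM in astrocytes, 147.7, 139.0, 181.9 and 202.9 in Bergmann glia and 71.0, 53.9, 83.4 and 70.1 in all other barcodes. BCAN, the perineuronal matrix proteoglycan brevican, was at 295.8, 470.9, 406.7 and 427.1 CPM in astrocytes and 130.9, 216.8, 172.2 and 163.6 in Bergmann glia. DHRS3, which reduces retinal to retinol, was at 79.2, 138.0, 77.9 and 55.0 CPM. All 3 were higher in astrocytes than in Bergmann glia in every library.

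Against Bergmann glia, the separation rested on fewer genes. Only 37 of the 2999 genes were higher in astrocytes by more than 1 on the log2 scale in all 4 libraries, and 40 of 3065 genes with at least 50 CPM in Bergmann glia were lower by as much. LUZP2, a leucine zipper protein of glia, was second in this ranking, at 3304, 1119, 2016 and 649.5 CPM in astrocytes and 109.3, 70.5, 82.5 and 77.5 CPM in Bergmann glia, log2 ratios of 3.05 to 4.91. VCAN, the proteoglycan versican, was at 1494, 1188, 1852 and 480.0 CPM against 238.9, 320.6, 475.4 and 108.3 CPM. Within each treatment both genes were lower in the male than in the female astrocytes, and the log2 ratio of VCAN to Bergmann glia was 1.89 to 2.64. PPP1R17, a phosphatase inhibitor known from Purkinje cells, was at 75.0, 68.1, 60.6 and 92.5 CPM in astrocytes and at most 13.8 CPM in Bergmann glia. PGM5, CCDC85A, CACNA2D3, LAMA1, STON2 and the unnamed ENSMMUG00000039474 were also among the 15 leading genes, together with GALNT3, DHRS3, GRAMD2B, ANKFN1, EYA4 and PI15 that already led the first ranking. GALNT3, PI15, EYA4, LUZP2, CCDC85A, CACNA2D3 and STON2 are on a list that the study made from these libraries, so their place here is not independent of it.

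The genes lowest in astrocytes against Bergmann glia included the main glial glutamate transporter of the cerebellum. SLC1A3 was at 522.9, 538.9, 804.8 and 438.1 CPM in astrocytes and 2998, 2328, 3548 and 1982 CPM in Bergmann glia, log2 ratios of -2.52 to -2.11. In all other barcodes it was at 548.8, 426.5, 499.0 and 314.6 CPM, above the astrocytes in Control female and below them in the other 3 libraries, and free RNA held 625.2, 501.8, 662.4 and 420.6 CPM. XYLT1, which starts the sugar chains of proteoglycans, was at 145.8, 257.2, 207.7 and 328.0 CPM against 1256, 1904, 1710 and 2071 CPM. CACNG8, an auxiliary subunit of AMPA receptors, was at no more than 8.81 CPM in astrocytes and at 92.5, 190.9, 179.5 and 87.1 CPM in Bergmann glia. RUBCNL had the largest difference, log2 ratios of -7.24 to -3.79, and RIMBP2, LRRC8A, GABRG3, PHYHD1, ARHGAP20 and PCSK6 completed the 10 lowest.

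**Figure D2:**
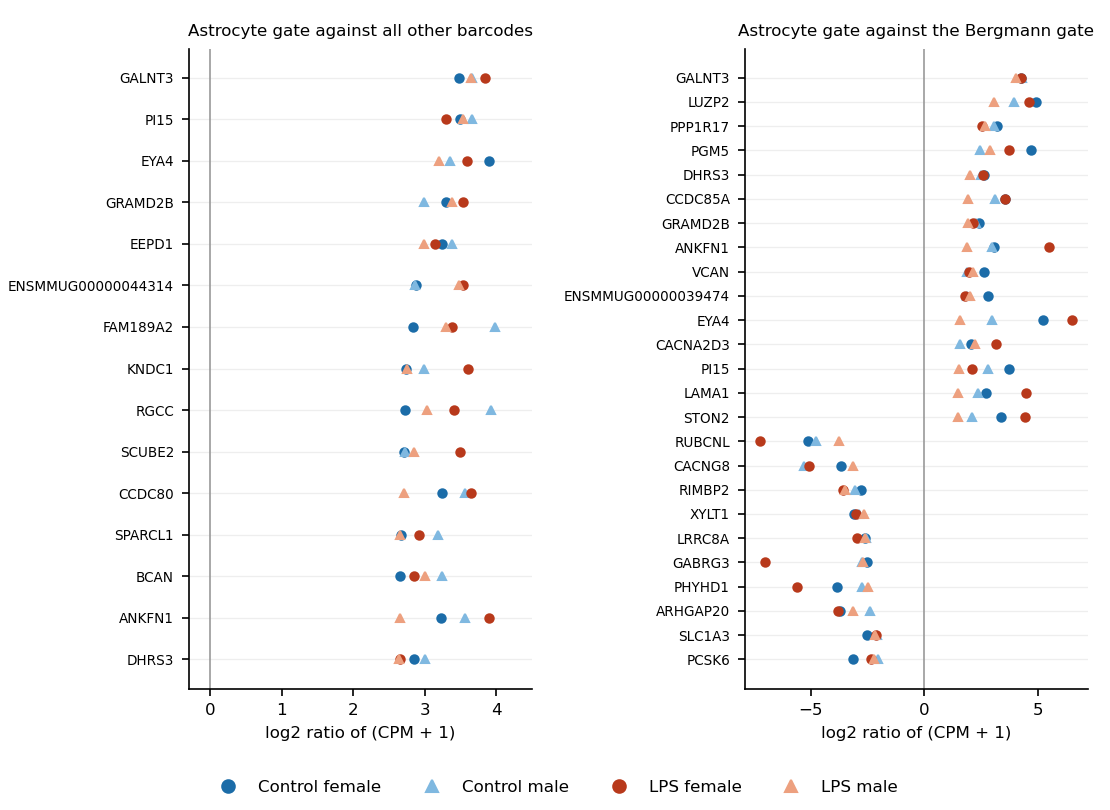
Log2 ratio of CPM (with 1 CPM added) of the astrocyte gate to all other barcodes (left) and to the Bergmann gate (right) for the 15 highest genes of each ranking and the 10 lowest against Bergmann glia, 1 symbol per library. Every library lies on the same side of 0 for each gene shown, from 2.63 to 3.98 in the left panel.

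General astroglial genes were shared with Bergmann glia. In the lists described from here on, 6 genes of the rule are also counted where they belong, KCNN3 among ion channels, FGFR2 among growth factor receptors, ANGPT1 among secreted signals, TNC in the matrix, BBOX1 in lipid metabolism and GFAP among reactive genes. KCNN3, ANGPT1, BBOX1 and GFAP were higher than in the other barcodes because the rule chose by them, and each adds 1 to the count of its list. Such counts stand beside the 919 of 2999 genes outside the rule that were higher in all 4 libraries. Those 2999 genes had at least 50 CPM in astrocytes of every library, whereas the lists hold members at any level. The shares are therefore not a like comparison. No such share was taken for counts of lower genes or for list counts against Bergmann glia. Of the 16 general astroglial genes, 12 were higher in astrocytes than in the other barcodes in all 4 libraries. The summed level of the 16 was 6110, 4920, 7286 and 4212 CPM in astrocytes, 7614, 5581, 9661 and 4971 in Bergmann glia and 1879, 1301, 1888 and 1262 in the rest. Against Bergmann glia 7 of the 16 were higher and 2 lower in all 4 libraries, and the lower sum went with SLC1A3, whose levels are given above. NPAS3, a transcription factor of astroglia, was at 2706, 1416, 2704 and 1156 CPM in astrocytes and 2976, 1586, 3983 and 1156 in Bergmann glia. RFX4, a transcription factor that acts on cilia genes in neural progenitors, was at 945.8, 1275, 995.1 and 506.4 CPM against 161.8, 189.5, 162.7 and 103.0 CPM in the other barcodes. AQP4, the water channel of astrocyte endfeet, was at 406.2, 170.2, 467.3 and 251.0 CPM in astrocytes, above the 105.7, 67.4, 138.2 and 111.5 CPM of Bergmann glia in every library. For APOE, the main lipid carrier of the brain, free RNA at 1281, 99.6, 1996 and 380.5 CPM exceeded the 360.4, 58.6, 848.0 and 195.9 CPM of the astrocytes in all 4 libraries, and the share of free RNA in it was not tested. SOX9 and GLUL had 9 and 6 UMIs in all astrocytes. Of 11 further Bergmann glia genes, 10 were lower in astrocytes than in Bergmann glia in all 4 libraries.

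Transporters and channels showed a mixed picture. Of the 11 genes for glutamate and GABA handling, 7 were higher in astrocytes than in the other barcodes in every library and 5 were lower than in Bergmann glia. GLUD1, glutamate dehydrogenase, was at 299.99, 270.4, 372.1 and 321.4 CPM in astrocytes and 182.5, 228.2, 276.5 and 220.9 CPM in Bergmann glia, higher in every library. SLC6A11, a GABA transporter of astrocytes, was at 175.0, 236.4, 225.0 and 178.3 CPM against 43.8, 55.5, 45.8 and 36.3 CPM in the other barcodes. SLC1A2, the glutamate transporter of mature forebrain astrocytes, was at 129.2, 111.6, 77.9 and 433.7 CPM, highest in LPS male. GABBR1, a subunit of the GABA-B receptor, was at 318.7, 431.1, 250.9 and 563.6 CPM, below the 724.0, 1009, 577.3 and 1374 CPM of Bergmann glia, whereas GRM5, a glutamate receptor, was at 447.9, 268.5, 458.6 and 513.0 CPM and close to Bergmann glia at 446.7, 268.7, 443.9 and 482.2 CPM.

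Among the 10 genes for gap junctions, water and ions, 7 were higher in astrocytes than in the other barcodes in every library. SLC4A4, a sodium bicarbonate transporter, was at 1450, 1237, 1475 and 1915 CPM and lower than the 3363, 2952, 4873 and 3857 CPM of Bergmann glia. KCNQ3, a potassium channel that was higher than in Bergmann glia in every library, was at 468.7, 665.6, 463.0 and 407.3 CPM. The gap junction gene GJA1 had 53 UMIs in all and its partner GJB6 had 15.

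Of 11 matrix genes, 9 were above the other barcodes in all 4 libraries. The list summed to 4739, 5544, 6075 and 3767 CPM in astrocytes and 1900, 2101, 1850 and 1568 CPM in the other barcodes, and to more in Bergmann glia in every library, at 6544, 7467, 8339 and 4693 CPM. The last difference is not independent of the rule, as these sums hold TNC, by which Bergmann glia were chosen. TNC alone was at 3576, 3725, 4436 and 1767 CPM in Bergmann glia and 508.3, 699.7, 536.5 and 204.8 CPM in astrocytes. PTPRZ1, a receptor phosphatase that binds matrix proteoglycans, was at 941.6, 1407, 1090 and 1035 CPM, a little below Bergmann glia at 1093, 1866, 1528 and 1300 CPM. CD44, the hyaluronan receptor of fibrous astrocytes, was at 112.5, 249.6, 186.0 and 182.7 CPM in astrocytes and 44.4, 44.6, 80.0 and 95.6 CPM in Bergmann glia, higher in each library. ITGB4, a laminin-binding integrin, was at 60.4, 185.3, 34.6 and 118.9 CPM and no more than 13.8 CPM in Bergmann glia. LAMA2, a laminin chain, was at 516.6, 374.4, 666.3 and 554.8 CPM and lower than in Bergmann glia. SPARC in LPS female, 212 CPM, was below its 309.5 CPM in free RNA of that library.

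Growth factor receptors differed gene by gene, with 4 of 10 higher and 3 lower than in the other barcodes in every library. ALK, the receptor for pleiotrophin and related ligands, was at 1440, 1713, 1393 and 1077 CPM in astrocytes, 758.8, 648.4, 1327 and 768.0 in Bergmann glia and 232.3, 218.1, 203.0 and 198.8 in the rest, and was higher in astrocytes than in either in all 4 libraries. NTRK2, the receptor for brain-derived neurotrophic factor, was at 516.6, 438.7, 618.7 and 286.2 CPM against 200.5, 168.1, 235.3 and 145.5 CPM in Bergmann glia. EGFR was at 779.1, 709.1, 696.6 and 350.1 CPM, and ERBB4, a neuregulin receptor that neurons also express, was at 4316, 2067, 2912 and 1832 CPM and below the other barcodes. Of the secreted signals, 6 of 11 were higher than in the other barcodes in all libraries. NRG1, the neuregulin ligand, was at 2052, 1638, 1423 and 3003 CPM and lower than elsewhere, and PTN, pleiotrophin, was at 543.7, 279.9, 540.8 and 290.6 CPM, below Bergmann glia at 1393, 639.0, 1678 and 590.6 CPM. BMPER, a secreted modulator of bone morphogenetic protein signals, was at 183.3, 134.3, 134.1 and 255.4 CPM and also lower than elsewhere in each library.

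Notch pathway genes were higher in astrocytes than in the other barcodes for 7 of 11 members. The receptors NOTCH1, NOTCH2 and NOTCH3 were at 50.6 to 195 CPM, and the target HES1 was at 81.2, 71.9, 73.6 and 70.5 CPM against 18.0, 23.3, 25.968 and 19.9 CPM in the rest. HES6, an inhibitor of HES1 that neuronal precursors express, was at 187.5, 94.5, 263.9 and 134.3 CPM and below free RNA in every library. Hedgehog pathway genes showed no such difference. Of 10, 2 were higher and 3 lower than in the other barcodes. GLI3 was at 554.1, 342.3, 584.1 and 310.4 CPM and BOC, a co-receptor, at 272.9, 217.5, 350.5 and 156.3 CPM.

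Of 16 astroglial transcription factors, 6 were higher than in the other barcodes in all libraries. Beside that count stand the 919 of 2999 genes with at least 50 CPM outside the rule, but this list also holds genes below that level. The count is a description and is not read as setting the list apart. NFIA and NFIB, which act in gliogenesis and which granule cells also express, were at 3652, 2523, 3699 and 2074 CPM and 3452, 1590, 3171 and 1255 CPM. PAX3, a factor of dorsal neural progenitors, was at 1010, 781.0, 1125 and 499.8 CPM against 183.6, 159.5, 166.2 and 111.9 CPM, and SOX2, which marks neural stem cells and glia, was at 356.2, 232.6, 562.5 and 220.2 CPM against 89.5, 53.1, 100.2 and 67.2 CPM. The forebrain factor LHX2 had no UMI in any astrocyte, and EMX2 had 1. Synaptic adhesion genes did not set the astrocytes apart, with 3 of 10 higher and 3 lower than elsewhere. LRRTM4 was at 2362, 1418, 3963 and 1090 CPM and NLGN1 at 1979, 858.5, 2021 and 1389 CPM. Of 15 genes for lipid and sterol metabolism, 6 were higher, and this count is not read as setting the list apart either. Among the 6 was CLU, a lipoprotein of astrocytes, at 172.9, 181.5, 212.0 and 156.3 CPM. SREBF2, which drives sterol synthesis, was at 206.2, 245.8, 138.5 and 297.2 CPM and 228.7, 289.8, 186.3 and 284.5 CPM in the rest.

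Genes known from reactive astrocytes summed to 602.1, 1246, 614.4 and 948.9 CPM in astrocytes, 253.3, 342.3, 405.0 and 291.0 in Bergmann glia and 175.2, 157.0, 202.0 and 116.1 in the other barcodes, most of it from GFAP, which the rule used, and CD44. Of 18 reactive genes, 7 were higher than in the other barcodes in all 4 libraries, with the rule's GFAP among them. The 919 of 2999 genes outside the rule had at least 50 CPM, whereas this list holds genes below that level and 2 with no UMI. The count is therefore not read as setting the list apart. Of the 18, 4 had enough UMIs for a test between groups. VIM, the other intermediate filament, was at 72.9, 39.7, 121.1 and 28.6 CPM, below its level in free RNA in each library. The 17 innate and cytokine response genes summed to 406.2, 894.4, 445.6 and 451.3 CPM against 232.4, 387.4, 235.1 and 290.0 CPM elsewhere and 462.3, 807.1, 422.0 and 498.2 CPM in Bergmann glia, and 3 of them were higher than elsewhere in all 4 libraries. LIFR, a receptor subunit for leukaemia inhibitory factor, was at 152.1, 438.7, 250.9 and 187.1 CPM against 46.1, 79.1, 36.7 and 40.3 CPM, and STAT3, which it activates, was at 89.6, 276.1, 116.8 and 121.1 CPM. NFKB1 was at 108.3, 68.1, 38.9 and 48.4 CPM. IL6, CCL2, CXCL10 and SOCS3, together with the reactive genes LCN2 and SRGN, had no UMI in any astrocyte, which over 1694174 UMIs allows up to 1.77 CPM each (3 counts, counting error only). Of the glucocorticoid response genes, NR3C1, the receptor, was at 425.0, 291.2, 428.3 and 281.8 CPM, SGK1 at 118.7, 88.9, 86.5 and 182.7 CPM and ZBTB16 at 43.7, 141.8, 34.6 and 61.6 CPM.

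Markers of other cell types were lower in astrocytes than elsewhere, with exceptions. The 12 granule cell genes summed to 4777, 3317, 3353 and 7534 CPM in astrocytes and 9988, 8876, 7752 and 11604 CPM in the rest, and 11 were lower in all 4 libraries, with RBFOX3 at 502.1, 1114, 372.1 and 1746, KCNIP4 at 2548, 951.2, 1847 and 3879 and FSTL4 at 397.9, 434.9, 151.4 and 775.0 CPM. LPS male had the most granule cell RNA in its astrocytes. The 7 interneuron genes summed to 56.2, 366.8, 151.4 and 810.2 CPM against 709.3, 1891, 777.2 and 1613 CPM, led by ADARB2, SORCS3 and GAD1. The 7 Purkinje cell genes summed to 183.3, 412.2, 203.4 and 290.6 CPM against 436.9, 489.2, 451.4 and 322.1 CPM, led by ITPR1, PPP1R17 and SLC1A6. The 7 microglial genes summed to 33.0 to 60.6 CPM, led by INPP5D, P2RY12 and RBM47, with CSF1R at 1 UMI. The 8 cell cycle genes summed to 280 to 350.0 CPM against 459 to 634 CPM elsewhere, led by DIAPH3, POLA1 and ATAD2. The 10 vascular and meningeal genes summed to 227.1, 164.5, 376.4 and 138.7 CPM against 243.6, 451.2, 284.6 and 137.1 CPM, and in LPS female MECOM and FLT1 were at 99.5 CPM each and COL12A1 at 90.9 CPM.

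The oligodendrocyte list was higher in astrocytes in every library, at 2237, 1484, 1822 and 1129 CPM against 675.1, 538.1, 698.7 and 903.9 CPM. PCDH15, a protocadherin also known from oligodendrocyte precursors, carried it at 1552, 1388, 1653 and 460.1 CPM. The defining genes OLIG1 and OLIG2 had 0 and 2 UMIs in all astrocytes and CSPG4 had 8. No gene of this list was lower than in the other barcodes in all 4 libraries, so these low counts do not set the astrocytes apart. MBP, a myelin protein, was at 475.0, 49.2, 64.9 and 251.0 CPM and above free RNA, 250.4, 180.1, 198.1 and 570.0 CPM, in Control female only. The choroid and ependymal list was also higher, at 412.5, 745.0, 938.9 and 689.1 CPM against 113.4, 130.6, 446.0 and 128.9 CPM. The 4 members that were higher in all libraries are axonemal genes of motile cilia, DNAH9 at 252.1, 448.2, 255.3 and 290.6 CPM, CFAP54 at 87.5, 208.0, 238.0 and 187.1 CPM, DNAH6 and DNAH7. FOXJ1, the regulator of motile cilia, had 2 UMIs, and TTR, the choroid plexus transthyretin, was at 8.33, 0, 259.6 and 2.20 CPM against 134.1, 0, 2830 and 5.94 CPM in free RNA.

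**Figure D3:**
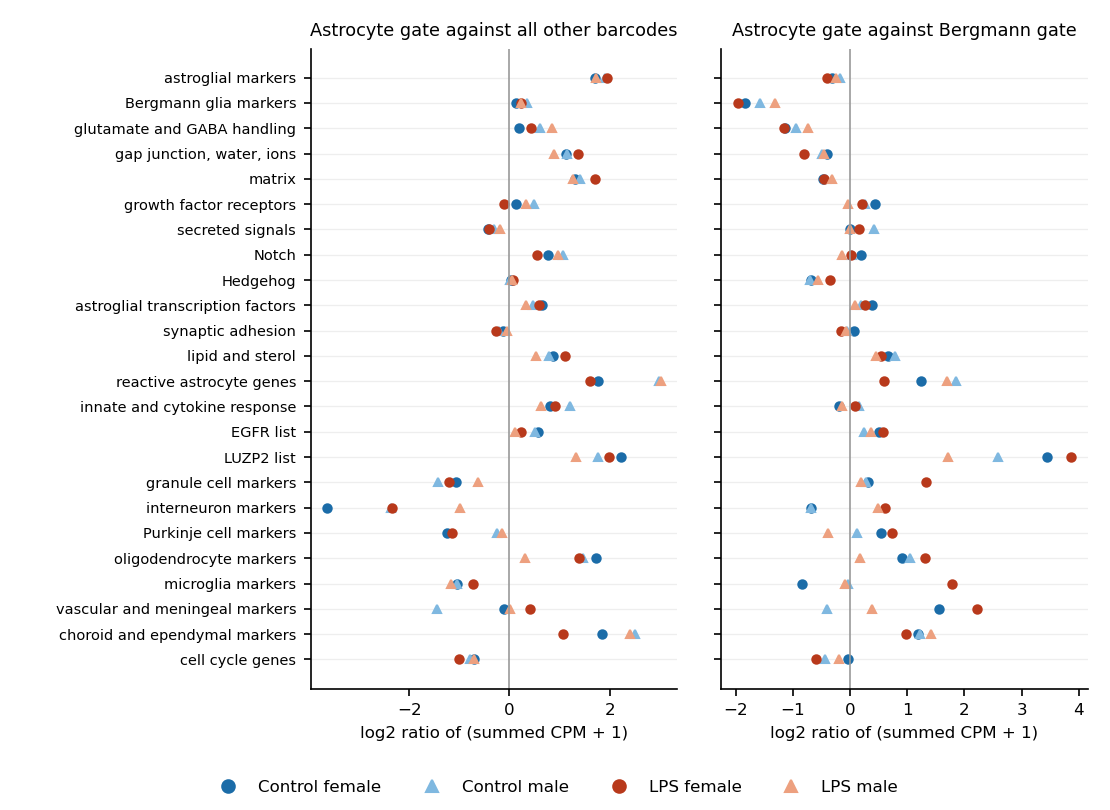
Log2 ratio of the summed CPM (with 1 CPM added) of each gene list in the astrocyte gate to all other barcodes (left) and to the Bergmann gate (right), 1 symbol per library. Astroglial markers lie to the right of 0 against all other barcodes in every library, with sums of 4212 to 7286 CPM against 1262 to 1888 CPM, and lie slightly left of 0 against the Bergmann gate, where 7 of the 16 genes were higher and 2 lower in all 4 libraries.

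The astrocytes were also split by GFAP. As GFAP is a marker of the rule, this split moves with the number of markers and is a description. Nuclei with GFAP, 46, 153, 19 and 106 in number, had more LUZP2 list RNA than those without it, 50, 75, 40 and 72, in all 4 libraries. This list of 8 genes, taken from the study's table of cluster genes, summed to 8580, 3143, 4691 and 3933 CPM with GFAP and to 3089, 1808, 3651 and 2525 CPM without. AQP4 was at 591.1, 192.7, 570.6 and 321.7 CPM with GFAP and 236.1, 118.5, 404.2 and 165.4 CPM without. The general astroglial list was likewise higher with GFAP, at 7767, 5545, 9324 and 5710 against 4585, 3485, 6042 and 2399 CPM. The EGFR list of 8 genes, from the same source, ran the other way at 1782, 1905, 1575 and 1335 and 2853, 2538, 2578 and 1435 CPM. Granule cell RNA was also lower in nuclei with GFAP, at 3742, 2410, 3230 and 5063 against 5729, 5400, 3428 and 10525 CPM, and its part in these differences was not tested.

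To place each nucleus, it was thinned to 1000 UMIs and put on the side of the list of which it held more genes. Of 95, 210, 57 and 145 astrocytes with enough UMIs, 42.1, 40.0, 35.1 and 21.4% fell on the EGFR side and 43.2, 38.6, 43.9 and 58.6% on the LUZP2 side. The rest held equal numbers. Of the rule's markers, ANOS1, ANGPT1, GFAP and BBOX1 were higher on the LUZP2 side in all 4 libraries, by 0.73 to 2.13 on the log2 scale for ANOS1 and ANGPT1, and KCNN3 was higher on the EGFR side, by a log2 ratio of -1.18 to -0.47. CD44, AQP4, SPARCL1 and RFX4 were also higher on the LUZP2 side in every library. Of the 12 granule cell genes, 4 were higher on the EGFR side in every library, RBFOX3 (log2 ratios of -3.75 to -0.67), EBF3, RASGEF1B and KCNIP4 (-0.58 to -0.015), and the other 8 were not on one side in all 4 libraries. VEPH1, KCNQ3 and HES6, which belong to the EGFR list, were higher on the EGFR side by construction.

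The share of astrocytes among barcodes was compared between LPS and Control by library. It was 1.04, 2.64, 0.854 and 2.28%, with exact 95% intervals (Clopper-Pearson, for counting error only) of 0.841 to 1.27%, 2.32 to 3.01%, 0.651 to 1.10% and 1.96 to 2.64%. Each male library was above each female one, and the LPS libraries lay on both sides of Control female. On the log2 scale the LPS share was 0.25 lower (-0.25, pooled SD 0.98, n = 2 and 2, two-sided exact permutation test p = 0.667), where 0.333 is the smallest p this design allows. Within the females the difference was -0.28 and within the males -0.21. Without Control male it was 0.43 and without LPS female 0.46, so leaving out either library turned the direction. Each of these comparisons left 1 sex in 1 group and both in the other, so the turn cannot be told apart from the split by sex. Relative to Bergmann glia there were 55.8, 52.7, 53.6 and 47.2 astrocytes per 100, a log2 difference of -0.11 (pooled SD 0.10, exact permutation p = 0.667).

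The split by sex went with the UMIs per barcode and with the PDGFRA condition. With every barcode thinned to 1000 UMIs and the condition kept, the share was 2.20, 2.73, 1.63 and 2.33% of the barcodes that deep, a log2 difference of -0.33 (pooled SD 0.30, exact permutation p = 0.667), -0.43 within the females and -0.23 within the males. The groups overlapped, with LPS male above Control female. When the condition was left out without thinning, an alternative chosen after seeing that PDGFRA was detected in barcodes of every kind, the share was 3.82, 4.25, 3.48 and 3.48%. Both LPS libraries were then below both Control libraries, with a log2 difference of -0.21 (pooled SD 0.08, exact permutation p = 0.333), -0.14 within the females and -0.28 within the males. With both changes the share was 2.92, 3.30, 2.30 and 2.69% of the barcodes that deep, a log2 difference of -0.32 (exact permutation p = 0.333). With at least 3 markers required, the share was 0.681, 1.93, 0.55 and 0.858%, a log2 difference of -0.74 (exact permutation p = 0.667) that came mostly from the males, at -1.17 against -0.31 in the females. No version passed the exact permutation test, which cannot go below 0.333 with 2 fetuses in each group, and fewer astrocytes and less RNA of the marker genes per astrocyte cannot be told apart by a rule that counts detected markers.

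**Figure D4:**
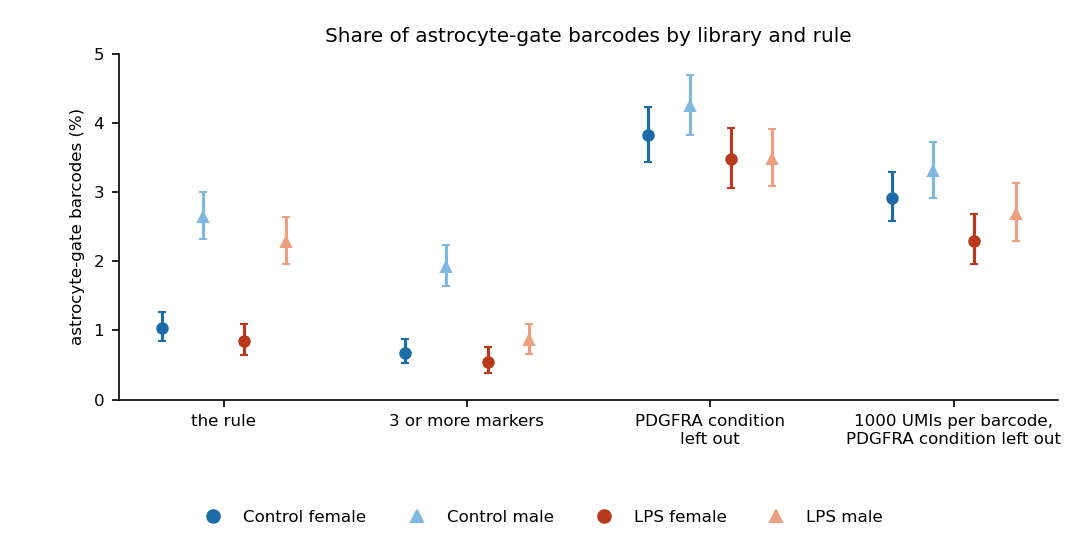
Astrocyte-gate barcodes as a percent of barcodes with at least 500 genes, by library, under the rule, with at least 3 markers, without the PDGFRA condition, and with barcodes thinned to 1000 UMIs and no PDGFRA condition (as a percent of barcodes that deep); bars are exact 95% binomial intervals. Under the rule the libraries split by sex, 0.854 to 1.04% in the females and 2.28 to 2.64% in the males, and without the PDGFRA condition they lie between 3.48 and 4.25%.

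The EGFR side was smaller in both LPS libraries than in both Control libraries, at 42.1, 40.0, 35.1 and 21.4%. The log2 difference was -0.58 (pooled SD 0.36, two-sided exact permutation p = 0.333, the smallest possible), -0.26 within the females and -0.90 within the males. Most of it came from LPS male, and without that library it was -0.23. With barcodes not thinned the LPS and Control libraries overlapped, at 46.9, 39.5, 49.2 and 30.3%, and the difference was -0.16. With the PDGFRA condition left out it was -0.12, and within the females it was then 0.30. In astrocytes the EGFR list summed to 2339, 2097, 2198 and 1380 CPM. In the other barcodes it summed to 1572, 1474, 1875 and 1277 CPM, and in free RNA to 2084, 1571, 2738 and 1375 CPM. Of its 8 genes, 3 were higher and 3 lower than in the other barcodes in all 4 libraries. The part of free RNA and of RNA from other cells in the EGFR side was not tested.

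Gene expression in astrocytes was compared between LPS and Control on UMIs summed by library, with edgeR's quasi-likelihood test over 7347 genes. The threshold was an adjusted p under 0.1 together with an absolute log2 fold change over 0.25. It called 0 genes (0.0% of those tested), with 1.00 as the smallest adjusted p. At an unadjusted p under 0.05 there were 67 genes, 0.912% of those tested and fewer than that level gives when no gene differs. DESeq2 called 0 with 36 at that level. The median log2 fold change of all genes was 0.02. Both LPS libraries were above both Control libraries for 749 genes (10.2%) and below them for 790 (10.8%). Fits that left out 1 library did call genes. In each such fit a lone library stood for its group and was assumed to vary like the other, and the sexes were unequal between the groups. Without LPS male the called genes included DDX3Y, USP9Y and UTY, genes of the Y chromosome. Without Control female they included the mitochondrial genes MT-CO2, MT-ND2, MT-ND4 and MT-ND5. Calls from these fits therefore cannot be told apart from differences between the sexes.

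The levels of the 5 markers in LPS and Control are a description, since the rule chose the nuclei by them. BBOX1 was at 285.4, 255.3, 173.1 and 90.3 CPM, lower in both LPS libraries, with a log2 fold change of -1.04 ± 0.47 (SE), -0.72 within the females and -1.49 within the males. It was -1.65 without LPS female, -0.60 without LPS male, -0.61 with the PDGFRA condition left out and -0.32 with barcodes thinned to 1000 UMIs. GFAP was at 354.2, 788.5, 207.7 and 695.7 CPM and overlapped between groups, with a log2 fold change of -0.30 ± 0.61 (SE). ANGPT1 was at 1379, 1157, 2098 and 764.0 CPM, highest in LPS female and lowest in LPS male. ANOS1 showed the same order at 1190, 930.4, 1705 and 543.8 CPM, and KCNN3 was at 531.2, 618.3, 575.4 and 460.1 CPM. The log2 fold changes of ANGPT1, KCNN3 and ANOS1 were 0.21 ± 0.63 (SE), -0.12 ± 0.41 (SE) and 0.11 ± 0.65 (SE). GFAP turned to 0.23 without Control male and 0.27 without LPS female, ANGPT1 to -0.023 and -0.80, and ANOS1 to -0.16 and -1.04 without the same libraries, while KCNN3 turned to 0.058 without LPS male.

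Among the genes with an unadjusted p under 0.05 and groups that did not overlap, 40 were higher and 24 lower in LPS. The 10 with the highest log2 fold changes were SLC1A1, ACKR1, ICA1, the unnamed ENSMMUG00000015322, OPCML, PLAAT1, PTCD1, IL16, GABRB2 and CFAP46, from 2.07 to 2.85, each with an edgeR adjusted p of 1.00. Most rested on few UMIs. SLC1A1, a neuronal glutamate transporter, had 5, 1, 8 and 25 UMIs, or 10.4, 1.89, 34.6 and 55.0 CPM, a log2 fold change of 2.85 ± 0.85 (SE) that was 4.49 without Control female and 1.99 without Control male. ACKR1, an atypical chemokine receptor, had 1, 3, 5 and 13 UMIs, or 2.08, 5.67, 21.6 and 28.6 CPM against 47.2, 40.8, 58.5 and 60.2 CPM in free RNA, and IL16, a cytokine precursor that granule neurons express as a longer form, had 10, 12, 8 and 70. The neuronal genes OPCML and GABRB2 were far higher in LPS male than in the other 3 libraries. OPCML, a cell adhesion molecule, was at 87.5, 43.5, 99.5 and 598.9 CPM, against 109.4, 194.5, 100.2 and 500.1 CPM in free RNA. In LPS male 115 of its 272 UMIs came from 1 barcode and 224 from nuclei with 2 markers. It passed the threshold without LPS female (log2 fold change 3.10, edgeR adjusted p = 0.0436) and without a filter on low counts (2.35, adjusted p = 0.00956), and its log2 fold change was 0.63 without LPS male (adjusted p = 1.00). GABRB2, a GABA-A receptor subunit, was at 35.4, 11.3, 38.9 and 167.3 CPM against 71.8, 49.2, 49.7 and 291.3 CPM in free RNA, which was thus also highest in LPS male for both genes. Without LPS male GABRB2 was at 0.76, IL16 at 0.72, PLAAT1 at 1.30 and ENSMMUG00000015322 at 1.57, and without Control male GABRB2 was at 1.44. With the PDGFRA condition left out the 10 genes were at 0.96 to 1.93. ACKR1, PTCD1, IL16 and GABRB2 were below free RNA in all 4 libraries. Granule cell RNA was also highest in LPS male, and the part of free and granule cell RNA in these values was not tested.

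The 10 lowest were MGME1, DDR2, the unnamed ENSMMUG00000047941, PXDNL, SERPINI2, DGUOK, COX18, NUBP1, PARP9 and MFAP3L, from -3.99 to -1.63, again with an edgeR adjusted p of 1.00 each. MGME1, a nuclease that maintains mitochondrial DNA, had 13, 14, 0 and 1 UMIs. DGUOK, a kinase that supplies nucleotides for mitochondrial DNA, had 25, 12, 1 and 5 UMIs, and COX18, an assembly factor of cytochrome oxidase, had 13, 13, 2 and 2. DDR2, a collagen receptor, had 12, 21, 2 and 0 UMIs and PARP9, an interferon-induced gene, had 18, 44, 3 and 10. These genes were low in both LPS libraries, but in LPS female the number of UMIs was 0 to 4 for each of the 10. With the PDGFRA condition left out their log2 fold changes were -1.76 to -0.36, with MGME1 at -1.76 and DGUOK at -0.36. Leaving out 1 library moved DDR2 to -7.00 without LPS female and -1.80 without LPS male, MGME1 to -6.48 and SERPINI2 to -6.91 without LPS male, and MFAP3L to -0.75 and DGUOK to -1.32 without Control female. ENSMMUG00000047941 and DGUOK were below free RNA in all 4 libraries.

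Of the genes on the lists, 4 had an unadjusted p under 0.05, and each had an edgeR adjusted p of 1.00. NOTCH3 was lower in LPS at 102.1, 170.2, 60.6 and 50.6 CPM, a log2 fold change of -1.26 ± 0.42 (SE), -0.74 within the females and -1.73 within the males. The spread of its UMIs over nuclei is a description only. Nuclei of 1 library are not replicates, and the gene was picked by its unadjusted p in these data. The 49, 90, 14 and 23 UMIs came from 30, 65, 12 and 22 astrocytes, with at most 5 in 1 barcode, and among nuclei with 3 to 5 markers it was at 128.0, 202.1, 73.6 and 92.2 CPM, also lower in both LPS libraries. In Bergmann glia the groups overlapped at 63.6, 132.8, 99.4 and 78.6 CPM. Of the 4 cilia genes, DNAH6 and DNAH7 were higher in both LPS libraries, while the groups overlapped for CFAP54, with a log2 fold change of 0.58 ± 0.46 (SE), and for DNAH9, with -0.31 ± 0.40 (SE). DNAH6 was at 41.7, 39.7, 82.2 and 123.3 CPM with a log2 fold change of 1.35 ± 0.44 (SE) and DNAH7 at 18.7, 49.2, 95.2 and 74.9 CPM with 1.36 ± 0.54 (SE). GPC5, a heparan sulphate proteoglycan of astrocytes, was at 14.6, 17.019, 38.9 and 52.8 CPM with 1.55 ± 0.55 (SE), and free RNA held 37.6, 31.2, 28.9 and 25.3 CPM, above the astrocytes in both Control libraries. Across the alternatives tried, log2 fold changes were -1.5 to -0.78 for NOTCH3, 1.06 to 2.22 for DNAH6, 0.90 to 2.05 for DNAH7 and 0.50 to 1.99 for GPC5. DNAH7 had its lowest value without Control female and its highest without Control male, and GPC5 and NOTCH3 came nearest to 0 with the PDGFRA condition left out.

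By list, no gene of any list passed the threshold. Of the 14 astroglial genes tested, 2 were higher in both LPS libraries and 0 lower, with a median log2 fold change of 0.19. Of 9 genes for glutamate and GABA handling, 2 were higher, GLUD1 at 0.29 ± 0.39 (SE) and GRM5 at 0.43 ± 0.45 (SE), and the median was 0.18. Of 8 genes for gap junctions, water and ions, 2 were higher and 1 lower, with a median of 0.32, GJA1 at 1.51 ± 0.79 (SE) and SLC4A4 at 0.34 ± 0.49 (SE). These shares stand against the 10.2 and 10.8% over all genes. Of 9 Notch genes, 1 was lower in both LPS libraries (NOTCH3), and the median was -0.20. Of 8 growth factor receptors, 2 were lower, EGFR at -0.48 ± 0.50 (SE) and ALK at -0.32 ± 0.48 (SE), with a median of -0.04.

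The matrix list had a median of 0.08 over 11 genes, with 1 higher, LAMA2 at 0.46 ± 0.44 (SE). The lipid and sterol list had a median of -0.02 over 12 genes, with 2 higher, among them SQLE, an enzyme of cholesterol synthesis, at 0.43 ± 0.50 (SE), and with BBOX1, a marker that the rule used, lower. Transcription factors had a median of -0.10 over 10 genes and secreted signals 0.00 over 7, each with 1 lower, NFIX at -0.25 ± 0.38 (SE) and FGF2 at -0.60 ± 0.57 (SE). Hedgehog genes had a median of 0.05 over 7 with none apart, and synaptic adhesion genes 0.25 over 7 with GPC5 higher and MEGF10 lower. Of the 4 reactive genes tested, none was apart, and of the 4 innate and cytokine response genes NFKB1 was lower, at -1.01 ± 0.50 (SE), with a median of -0.46. The 3 glucocorticoid response genes tested overlapped, with a median of -0.01. The EGFR list had a median of -0.41 over 8 genes with 3 lower, and the LUZP2 list -0.37 over 8 with UNC5D higher and EYA4 lower. Over all genes tested, 10.2% were higher and 10.8% lower in both LPS libraries, and these few genes per list are a description beside those shares.

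Of the other cell types, the 9 further Bergmann glia genes tested had a median of 0.03 with FBN2 lower, the 11 granule cell genes 0.12 with 1 higher and 2 lower, and the 5 cell cycle genes -0.25 with POLA1 lower. The 3 interneuron genes tested were all positive, with a median of 1.37 and GAD1 higher. GAD1 rested on 4, 8, 5 and 17 UMIs, and in LPS male 156 of the 306 UMIs of ADARB2 came from 1 barcode. The 4 cilia genes tested had a median of 0.97 with 2 higher, the 3 vascular genes 0.59 with 1 higher, the 3 Purkinje cell genes 0.12 and the 5 oligodendrocyte genes 0.01, with none apart in the last pair. No microglial gene had enough UMIs for a test. Beside the counts in this paragraph stand the shares over all genes tested, 10.2% higher and 10.8% lower in both LPS libraries.

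Whether the LPS difference itself differed between astrocytes and Bergmann glia was tested on 8 sums, 4 libraries by 2 gates, with the library as a term. Of 8378 genes, 4 passed an adjusted p under 0.1 (0.0477%). An unadjusted p under 0.05 was found for 376 (4.49%), about the share that level gives when no gene differs. Leaving out 1 library gave 1 call without Control female, 1 without Control male, 44 without LPS female and 83 without LPS male. With at least 3 markers required, and again with the PDGFRA condition left out, no gene was called by edgeR, with 281 and 376 genes at an unadjusted p under 0.05. The first of these fits leaves 334 astrocytes.

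PDZRN4, a gene for a PDZ and RING domain protein, was the one of the 4 least concentrated in single barcodes among the astrocytes. It was at 650.0, 453.8, 428.3 and 328.0 CPM in astrocytes, lower in both LPS libraries, and at 73.2, 76.8, 162.5 and 173.1 CPM in Bergmann glia, higher in both. The difference between the gates was -1.72 ± 0.28 (SE, log2, edgeR adjusted p = 0.0241). Its UMIs came from 48, 93, 30 and 56 astrocytes, and 1 barcode gave at most 13.1% of them in any library. In Bergmann glia it had 61, 74, 67 and 163 UMIs in 29, 42, 16 and 66 barcodes. The largest share from 1 barcode was not taken there. In astrocytes with 3 to 5 markers PDZRN4 was at 893.1, 504.1, 490.6 and 563.6 CPM, where LPS and Control overlapped. The gate difference was then -1.74 (edgeR adjusted p = 0.382), and with the PDGFRA condition left out it was -1.14 (adjusted p = 0.967). It was also not called without Control female, without Control male or without barcodes called doublets, at -1.43, -2.02 and -1.87.

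In the other 3 genes 1 barcode gave a large part of the UMIs of a library. BCAS1, a gene of early myelinating oligodendrocytes, was at 33.3, 5.67, 8.65 and 202.6 CPM in astrocytes and 171.7, 31.1, 9.70 and 28.7 CPM in Bergmann glia, a difference between gates of 4.91 ± 0.54 (SE, log2, edgeR adjusted p = 0.000375). In LPS male 56 of its 92 UMIs came from 1 barcode and 87 from nuclei with 2 markers, and in Control female 15 of 16 came from 1 barcode and all 16 from nuclei with 2 markers. Among Bergmann glia, the Control female value came from 143 UMIs in only 5 barcodes, and LPS female had 4 UMIs in 4 barcodes. Free RNA held 71.8, 60.019, 52.9 and 102.5 CPM of BCAS1 and 307.8, 1052, 246.2 and 663.6 CPM of ADARB2. ADARB2, an RNA editing family member of interneurons, was at 27.1, 251.5, 99.5 and 673.7 CPM in astrocytes and 60.034, 459.6, 60.6 and 399.4 CPM in Bergmann glia, a difference of 1.69 ± 0.28 (SE, log2, edgeR adjusted p = 0.0241). In LPS male 156 of 306 UMIs came from 1 barcode and 280 from nuclei with 2 markers, and with at least 3 markers required the difference was -0.79. SH3RF3, a scaffold protein with SH3 domains, was at 56.2, 41.6, 129.8 and 257.6 CPM against 70.8, 150.4, 70.3 and 85.0 CPM, a difference of 2.53 ± 0.42 (SE, log2, edgeR adjusted p = 0.0241). In LPS female 25 of its 30 UMIs came from 1 barcode, and in LPS male 103 of 117 came from nuclei with 2 markers. Without LPS male the BCAS1 difference was 2.19 and not called, without Control female BCAS1 and ADARB2 were not called, and without Control male ADARB2 and SH3RF3 were not called.

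**Figure D5:**
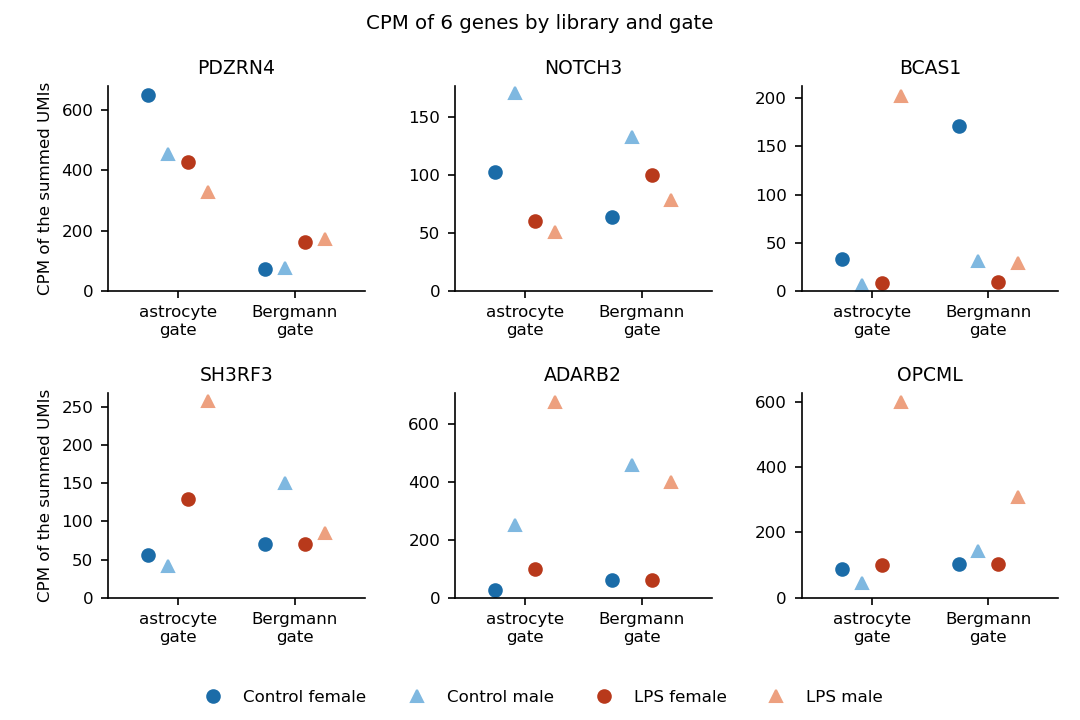
CPM of 6 genes in the astrocyte gate and the Bergmann gate, 1 symbol per library, on linear axes from 0. PDZRN4 lies higher in the astrocyte gate in every library, at 328 to 650.0 CPM against 73.2 to 173 CPM, and BCAS1, SH3RF3, ADARB2 and OPCML have their highest astrocyte value in LPS male.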

How the data were processed

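Single-nucleus RNA was captured with 10x 3' v3.1 kits from the cerebellar hemispheres and, per the study's methods, part of the vermis of 4 fetuses, and the deposited values are raw UMI counts per gene and barcode, which the authors made with Cell Ranger against Mmul_8.0.1 with introns included. The processing notes and file headers name Cell Ranger 4, whereas the protocol names a later release. No barcode filter had been applied. Each fetus is a separate animal and the replicate, and the labels pair no samples.

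The rule was applied in Python 3.11.15, with numpy 2.4.6, scipy 1.17.1 and pandas 2.3.3. The mirrored rule gave Bergmann glia. The members, the gene lists and the tests were chosen with earlier results of these data known. UMIs were summed per library and tested in R 4.3.3 with edgeR 4.0.16 (filterByExpr, TMM, quasi-likelihood, Benjamini-Hochberg over all genes tested), with DESeq2 1.42.0 as an alternative. Both the scripts for the group test and for the interaction were tested on simulated data. Astrocytes against other barcodes were described by log2 ratios with 1 CPM added and not tested, since the rule used that contrast. Genes near an overlapping or antisense gene were not treated apart. Shares were compared by a two-sided exact permutation test. Binomial intervals and limits from a count of 0 cover counting error only. Levels of different genes are not comparable, as 3' tags with introns are not scaled by length.

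Doublets were called with Scrublet in scanpy 1.11.5. Its own limit called 0 and 2 barcodes in the 2 male libraries, where it had not worked, and there the median limit of the other libraries was used, giving 505, 637, 368 and 440 calls in the order used in the report, of which 8, 22, 2 and 12 were astrocytes. They were kept, and left out as an alternative.

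Genes were named by a rule: the 5 markers, called genes or else the 10 highest and 10 lowest with an unadjusted p under 0.05 and groups that did not overlap, the 15 leading genes of each ranking and the 10 lowest against Bergmann glia, the 3 most abundant members of each list and list members with an unadjusted p under 0.05. Other list members named were chosen after their values were seen. HEPACAM, FABP7, MDK, NCAN, NLGN2, THBS2, SCD, GBP2, IFITM3, KLF9, DUSP1, KIT and SOX10 were on the lists but matched no gene symbol and were not analysed here.

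Some members of the lists are not reported here.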

Additional observations from a re-analysis of the deposited data

Results flagged for a closer look

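In 4 genes the LPS difference differed between astrocytes and Bergmann glia by the interaction test, and their values are repeated here for a closer look. The log2 difference between the gates (LPS minus Control in astrocytes, less the same in Bergmann glia) was 4.91 for BCAS1, 1.69 for ADARB2, 2.53 for SH3RF3 and -1.72 for PDZRN4. BCAS1 was 2.43 in astrocytes and -2.38 in Bergmann glia, and within each group its libraries spanned from 5.67 to 33.3 CPM and from 8.65 to 202.6 CPM in astrocytes. Of its Bergmann glia UMIs, 143 came from 5 barcodes of Control female. ADARB2 was 1.55 and -0.11, and SH3RF3 was 1.99 and -0.47. PDZRN4 was -0.55 in astrocytes and 1.17 in Bergmann glia, with both LPS libraries on one side of both Control libraries in each gate. None of the 4 was called with at least 3 markers required or with the PDGFRA condition left out. In the other alternatives that kept all 4 libraries, BCAS1 and ADARB2 were called each time. PDZRN4 was not called without barcodes called doublets. SH3RF3 was not called with at least 1000 genes or with at most 5% mitochondrial UMIs.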

How the results depend on the processing

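The astrocyte share stayed lower in LPS under each planned and added setting except when Control male or LPS female was left out (0.43 and 0.46). Leaving out 1 library gave -0.95 to 0.46 and made the sexes unequal between the groups. The EGFR-side difference stayed negative in every setting but moved to -0.11 with at least 1000 genes, -0.12 without the PDGFRA condition and -0.16 without thinning. Genes called between LPS and Control numbered 7 without a filter on low counts and 4 to 19 when 1 library was left out, and 0 in all other settings. Genes called between gates numbered 20 without a filter, 0 with at least 3 markers, 0 without the PDGFRA condition and 1 to 83 when 1 library was left out. Of 356 alternative values for 29 named genes between LPS and Control, 14 turned in direction and 2 passed the threshold (OPCML), and since none passed it to begin with, the other 340 say nothing of stability. With the PDGFRA condition left out SLC1A1 was at 1.54, PTCD1 at 0.96 and DGUOK at -0.36. Leaving out 1 library gave BBOX1 -1.65 to -0.60, GFAP -1.37 to 0.27, ANGPT1 -0.80 to 0.77, KCNN3 -0.38 to 0.058 and ANOS1 -1.04 to 0.72. ANGPT1 was -0.10 without the PDGFRA condition and -0.075 thinned, KCNN3 0.030 with at least 3 markers and 0.10 thinned, and ANOS1 -0.052 without the PDGFRA condition and -0.026 thinned. Of 43 alternative values between gates, 26 stayed called on the same side, 16 kept their side but lost the threshold and 1 turned (ADARB2, -0.79 with at least 3 markers). The causes were not tested. With sex as a replicate block 0 genes were called (edgeR, 261 at an unadjusted p under 0.05) and ANOS1 turned to -0.10. The labels pair no fetuses, and 2 pairs are too few to check a pairing.

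With 2 fetuses in each group the exact permutation test of a share cannot go below 0.333. The summed astrocytes of a library held 231124 to 528827 UMIs, so that a gene at 0 counts in 1 library could be at up to 13.0 CPM, and 4 of 18 reactive and 4 of 17 innate and cytokine response genes had enough counts to be tested. UMIs per barcode, mitochondrial share and sex went together, so these cannot be told apart in any split of the libraries by sex.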
